A study of Mus musculus with 4 samples.

Results

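The α-cells described here were selected on their hormone transcripts in 4 single-cell RNA-seq libraries of mouse islets. A barcode was called an α-cell when at least 2% of its unique molecular identifiers (UMIs, 1 per captured transcript) came from *Gcg*, *Gcg* exceeded *Ppy*, *Ins1* and *Ins2* together stayed under 2%, and *Sst* stayed under 1%. Barcodes were first kept only if 200 to 4000 genes were seen in them and no more than 12% of their UMIs were mitochondrial. The untreated library held 90 α-cells among 1521 kept barcodes, and the library treated with IL-1β + IFN-γ held 167 among 1810, so that the central comparison rested on 257 of 3331 kept barcodes. The IL-1β library gave 334 α-cells of 2018 kept barcodes and the IFN-γ library 296 of 2122. In all, the series held 12571 barcodes, of which 7471 were kept.

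Islets from male C57BL/6 mice (C57BL6/J in the study's methods) were pooled and divided. The parts were left untreated or exposed ex vivo for 6 h to IL-1β, to IFN-γ or to both cytokines, before dissociation and 3′ droplet sequencing. Each of the 4 conditions was 1 library, so no difference here has a replicate check, no p-value is given, and library and treatment cannot be told apart. The cytokines met whole islets, so a direct response of α-cells and one passed on by neighbouring cells cannot be told apart. The α-cells summed to 934396, 2236290, 2371928 and 1486522 UMIs, given first for untreated islets, then for IL-1β alone, IFN-γ alone and the combination, and values below follow this order unless stated. Median depth was 10917.5, 6394, 8047.5 and 8434 UMIs per α-cell.

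α-Cells make glucagon, the hormone that raises blood glucose, and use amino acids as a main stimulus for its release. IL-1β acts through its receptor and MyD88 to free NF-κB from its inhibitor IκBα, and IFN-γ acts through its receptor and JAK kinases and induces the transcription factor IRF1. Many promoters of inflammatory genes carry sites for both routes, and the guanylate-binding proteins (GBPs) and immunity-related GTPases (IRGs) are classical products of the interferon route with roles in defence inside the cell.

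The promoters of 5 genes that the results turn on are shown because they hold letters linked with the 2 routes. Each window runs from 250 bases before to 50 bases after the start, read from RefSeq on the GRCm38.p6 build, 5′ to 3′ on the strand of the gene. Capitals mark matches, on either strand, to 3 patterns: GAAA, any 2 bases and GAAA (interferon-stimulated response element), TTC, any 3 bases and GAA (gamma-activated site), or GGGA, any 3 bases and TCC (NF-κB site).
Cxcl10 promoter, chr5:92348840-92349139, - strand: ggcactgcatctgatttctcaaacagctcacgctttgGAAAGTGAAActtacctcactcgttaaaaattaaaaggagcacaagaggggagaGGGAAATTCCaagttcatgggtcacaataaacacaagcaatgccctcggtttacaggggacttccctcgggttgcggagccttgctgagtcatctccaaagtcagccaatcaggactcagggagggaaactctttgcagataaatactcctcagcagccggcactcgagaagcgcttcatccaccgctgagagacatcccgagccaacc
Gbp2 promoter, chr3:142620413-142620712, + strand: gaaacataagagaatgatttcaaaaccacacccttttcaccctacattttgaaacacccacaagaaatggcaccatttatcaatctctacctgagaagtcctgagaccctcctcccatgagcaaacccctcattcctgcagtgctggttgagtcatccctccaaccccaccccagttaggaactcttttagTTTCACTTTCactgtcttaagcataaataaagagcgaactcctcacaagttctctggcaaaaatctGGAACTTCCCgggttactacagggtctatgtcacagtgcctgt
Irf1 promoter, chr11:53769764-53770063, + strand: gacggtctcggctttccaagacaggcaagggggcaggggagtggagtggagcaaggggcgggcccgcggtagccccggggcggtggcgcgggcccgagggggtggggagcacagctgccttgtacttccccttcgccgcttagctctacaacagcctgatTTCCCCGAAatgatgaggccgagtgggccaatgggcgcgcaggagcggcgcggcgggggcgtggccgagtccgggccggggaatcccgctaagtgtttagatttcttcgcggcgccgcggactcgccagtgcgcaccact
Icam1 promoter, chr9:21015690-21015989, + strand: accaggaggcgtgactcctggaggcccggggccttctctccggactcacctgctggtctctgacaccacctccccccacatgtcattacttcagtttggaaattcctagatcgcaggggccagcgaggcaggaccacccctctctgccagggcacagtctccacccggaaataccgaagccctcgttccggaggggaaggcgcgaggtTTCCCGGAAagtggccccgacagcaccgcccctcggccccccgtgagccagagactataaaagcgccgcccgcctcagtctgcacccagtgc
Nfkbia promoter, chr12:55492598-55492897, - strand: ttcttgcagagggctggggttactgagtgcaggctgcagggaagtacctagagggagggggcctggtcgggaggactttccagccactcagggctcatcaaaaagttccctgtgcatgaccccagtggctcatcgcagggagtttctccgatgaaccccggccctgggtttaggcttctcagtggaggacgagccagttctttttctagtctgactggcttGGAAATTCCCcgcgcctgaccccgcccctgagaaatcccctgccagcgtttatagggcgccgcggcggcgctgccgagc

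In the *Cxcl10* window the interferon-stimulated element began at -213 and the NF-κB letters at -159, counted from the start with no position 0. *Gbp2* also held one match of each of these kinds, the first at -59 and the second at 8. *Irf1* and *Icam1* each held a gamma-activated site, at -90 and -42. The *Nfkbia* window held NF-κB letters at -29. Over all 32851 windows in the table, 3.44% held the interferon-stimulated element, 8.3% the gamma-activated site and 4.59% the NF-κB letters. A second start of *Irf1* had no match, and *Nos2* and *Cebpd* had no entry. Only these exact patterns were searched, so an unmarked stretch can still hold a site spelled otherwise.

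The label was checked against α-cell markers, of which the selection used only *Gcg*. Transthyretin (*Ttr*) was at 8516, 5573, 6299 and 8675 CPM (the gene's UMIs per 1000000 UMIs of the α-cells in that library). The transcription factor *Irx2* was at 178, 182, 151 and 137 CPM. *Gc*, the vitamin D binding protein, was at 548, 615, 514 and 478 CPM. All 10 α-cell markers, *Gcg* included, were detected in all 4 libraries, although *Fap* was at only 1.07, 1.34, 1.69 and 1.35 CPM. *Gcg* itself had a median share of 21.8%, 17.0%, 15.2% and 16.8% per cell, which the selection had set to at least 2%.

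Markers of other cell types ranged from absent to abundant. The macrophage genes *Adgre1*, *C1qb*, *Ptprc* and *Csf1r* had no UMI in any α-cell, and the endothelial list summed to 2.14, 2.24, 0.422 and 5.38 CPM. The macrophage list as a whole summed to 52.4, 15.7, 24.5 and 44.4 CPM, and *C1qa* was its most abundant gene at 49.2, 8.50, 20.7 and 30.9 CPM. Acinar markers summed to 76, 17.4, 134 and 64.6 CPM and were led by *Ctrb1*. The list of pancreatic polypeptide (PP) cells was the highest, at 21052, 16614, 19918 and 19567 CPM, led by *Pyy*, and *Ppy* made up more than 1% of UMIs in 8, 35, 35 and 24 α-cells. The ductal list summed to 2483, 9313, 3406 and 4520 CPM, most of it *Spp1*. The δ-cell list was led by *Rbp4* at 2703, 1449, 1708 and 1767 CPM. The T cell genes *Cd3e* and *Cd3g* had no UMI. The part of these other-cell transcripts in the results below was not tested.

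**Figure D1:**
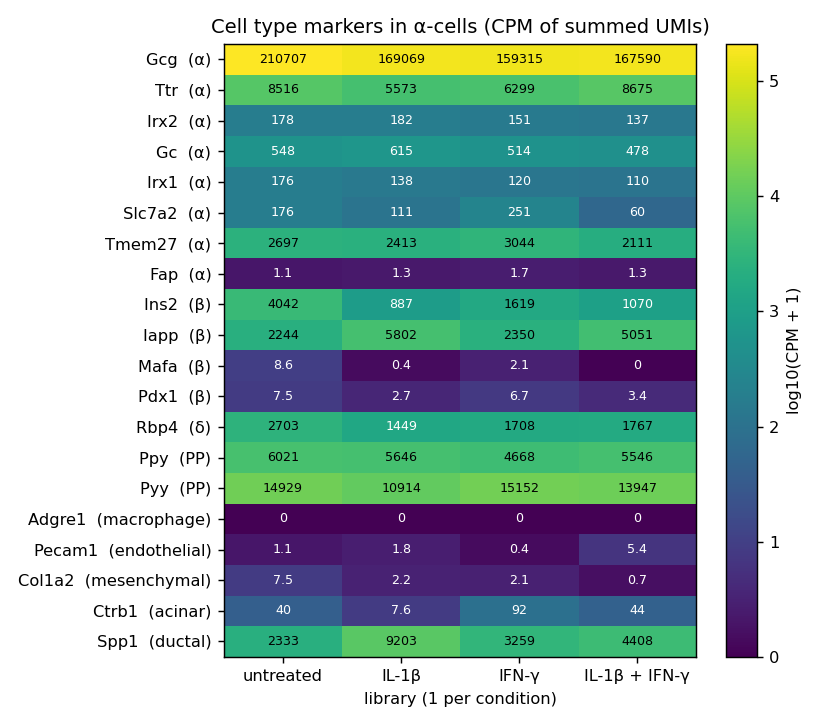
Levels of cell type markers in the α-cells of each library, 1 column per library, coloured by log10(CPM + 1) with the CPM written in each cell. *Gcg*, *Ttr* and *Gc* were high in all 4 libraries, *Adgre1* was at 0 throughout, and *Iapp* was at 2244 CPM untreated against 5051 CPM with both cytokines.

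*Ins1* and *Ins2* summed to 5428, 1160, 2155 and 1351 CPM in α-cells, or 1.28%, 0.495%, 0.724% and 0.394% of their level in β-cells of the same library. β-Cells were barcodes with at least 10% insulin UMIs. The selection itself kept insulin under 2% of UMIs, so these values describe the cells chosen, and the part of free β-cell RNA in the results below was not tested. *Ins1* and *Ins2* are 2 of the 43 lower genes counted below, with the lowest ln fold changes of all, and are not read as a change of α-cells. Near the limits, 1 untreated barcode lay between 2% and 3% *Gcg*, 2 IL-1β barcodes between 1% and 2%, and 5 and 3 α-cells of the untreated and combined libraries had insulin between 1% and 2%. Barcodes that met the *Gcg* limits but had insulin of 2% or more, and were left out, numbered 9 and 27 in these libraries, of which 1 and 0 lay between 2% and 3%. The *Sst* limit left out 0, 26, 12 and 15 barcodes that met the other limits, so it removed none from the untreated library.

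Genes seen in 10% or more of the α-cells of either library numbered 8514, and 193 of them were higher with both cytokines than untreated by more than 0.5 in the ln fold change, or 2.27% of the genes compared. Another 43 were lower by more than 0.5, or 0.505%. With hormone genes left out of the totals, of which *Gcg* alone took 210707, 169069, 159315 and 167590 CPM, 228 genes were higher and 85 lower. The ln fold change is that of the mean UMIs per 10000 plus 1, and the limit is a rule of size and not a test. The median over all genes compared was -0.02. In the counts by gene group below, members detected in fewer α-cells were not compared and could not pass, and the number compared is given where it is smaller than the group. IL-1β alone gave 103 higher genes (1.24% of 8318) and 35 lower genes (0.421%). IFN-γ alone gave 55 higher genes (0.657% of 8377) and 3 lower genes (0.0358%), which were *Ins1*, *Ins2* and *Gm26917*. These comparisons share the untreated α-cells.

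**Figure D2:**
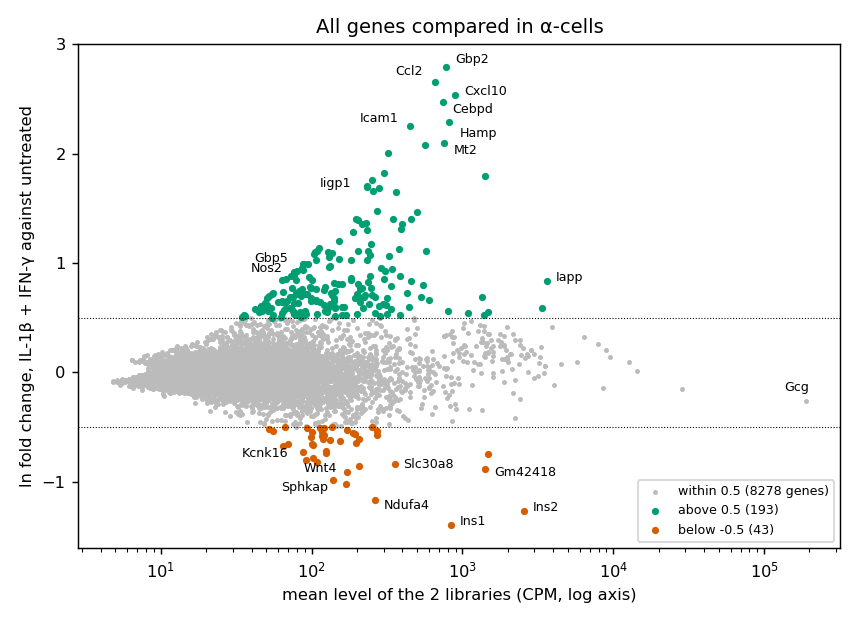
Each point is a gene compared in α-cells, with the mean of its untreated and IL-1β + IFN-γ levels in CPM on a log axis and its ln fold change on the vertical axis. Dotted lines mark 0.5 and -0.5, with 193 genes above, led by *Gbp2* at 2.79, and 43 below.

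Of the 193 genes higher with both cytokines, 70 passed the limit with IL-1β alone as well, 35 with IFN-γ alone, 3 with each of the cytokines alone, and 85 with neither. *Gbp2*, which passed the limit with IFN-γ, and *Cebpd*, which passed it with IL-1β, were both detected in 156 of 167 α-cells of the combined library, or 93.4%. Of the others, 7 had *Cebpd* only and 4 had neither gene. In the single-cytokine libraries both were found in 14.7% and 17.6% of α-cells, and in none of 90 untreated cells. *Cebpd* by itself was detected in 23 of 90 untreated α-cells and in 62 of 296 with IFN-γ alone, so a UMI of it does not by itself mark exposure to IL-1β. Promoter windows were found for 25 of the 35 genes of the IFN-γ class, and 40% of these held the interferon-stimulated element, against 3.69% of the 6770 compared genes with a window. For the IL-1β class, 21.6% of 51 genes with a window held the NF-κB letters, against 6.28%. The class that passed the limit with neither cytokine alone had 65 genes with a window. Of these, 15.4% held the NF-κB letters and 13.8% the interferon-stimulated element. Among genes with a window, the gamma-activated site was in 20% of the IFN-γ class, 15.7% of the IL-1β class and 12.3% of the class with neither, against 8.02% of compared genes. A gene with several windows was counted when any of them held the letters, unlike the shares over all windows above.

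Every GBP in the files was higher with both cytokines. All 9 passed the limit, against 6 with IFN-γ alone and none with IL-1β alone, and their median ln fold change with both was 1.11. *Gbp2* (chr3:142620602-142638008) was at 0, 42.5, 681 and 1565 CPM, at least 488-fold higher with both cytokines when 3 UMIs are taken as the floor of the untreated library. It was detected in 93.4% of α-cells with both cytokines (156 of 167 cells, exact binomial 95% interval 88.5% to 96.7%) and in 83.4% with IFN-γ alone. Its level with both was 2.30 times that with IFN-γ (exact 95% counting interval 2.16 to 2.45).

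*Gbp5* differed more between single and combined exposure, at 0, 4.92, 11.8 and 161 CPM. It was found in 2.99% and 7.09% of α-cells with a single cytokine and in 55.7% with both. *Gbp3* was at 12.8, 35.8, 285 and 590 CPM and *Gbp7* at 27.8, 21.5, 508 and 403 CPM. Thus 8 of the 9 GBPs had their highest level in the combined library, and *Gbp7* had it with IFN-γ alone. *Gbp4*, *Gbp8* and *Gbp9* overlap on the same strand of chromosome 5, so that the split of reads among them is uncertain.

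The IRGs had the opposite order between the 2 interferon-treated libraries. *Iigp1* was at 2.14, 0, 1765 and 464 CPM, 3.80-fold lower with both cytokines than with IFN-γ alone. *Irgm1* was at 25.7, 13, 674 and 348 CPM. *Igtp* was at 18.2, 3.13, 579 and 286 CPM. Of the untreated UMIs, 1 cell that is described with *Cxcl10* below held 2 of 2 of *Iigp1* and 10 of *Irgm1*, with 14 of *Irgm1* in the other 89 cells. Each of the 8 IRGs had a higher level with IFN-γ alone than with both, although for *Ifi47* the ratio of 0.874 had an interval of 0.748 to 1.02. Against untreated, 6 passed the limit with IFN-γ and 5 of 7 compared with both. *Igtp* and *Irgm2* overlap on one strand of chromosome 11, and *Tgtp1* and *Tgtp2* are near-identical copies.

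This order was then counted over all genes by a rule chosen after the values were seen. Genes higher with IFN-γ by the limit, and at most 0.5 times that level with both cytokines, numbered 9, or 0.107% of 8377. Among these were *Iigp1*, *Igtp*, *Irgm2*, *Oasl2* and *Samhd1*. *Samhd1*, a dNTP hydrolase that restricts viruses, was at 21.4, 12.1, 154 and 55.2 CPM. *Irf1*, a transcription factor of the interferon route, went the other way at 37.5, 54.5, 255 and 508 CPM, which was 1.99 times its level with IFN-γ alone (1.79 to 2.22). The RNA sensor *Ifih1* was at 63.1, 46.5, 166 and 50.5 CPM.

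Antigen presentation was higher through a subset of its genes. Of 18 MHC class I and peptide loading genes, 7 passed the limit with both cytokines, 4 with IFN-γ and none with IL-1β. The light chain *B2m* was at 233, 292, 472 and 920 CPM, a ratio of 3.94 to untreated (3.41 to 4.57). The peptide transporter *Tap1* was at 17.1, 12.5, 200 and 242 CPM. All 5 immunoproteasome genes passed it with IFN-γ and with both, with *Psmb8* at 51.4, 82.7, 460 and 357 CPM, whereas none of the 3 constitutive subunits they replace passed it in either direction. *Psmb5*, one of these, was at 276, 156, 189 and 179 CPM. The checkpoint ligand *Cd274* was at 11.8, 8.94, 138 and 115 CPM, a gene that passed the limit with IFN-γ and with both. Only 1 of 7 MHC class II genes was detected in enough α-cells to be compared, and it did not pass. The 7 genes summed to 5.35, 9.39, 51.9 and 86.8 CPM.

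**Figure D3:**
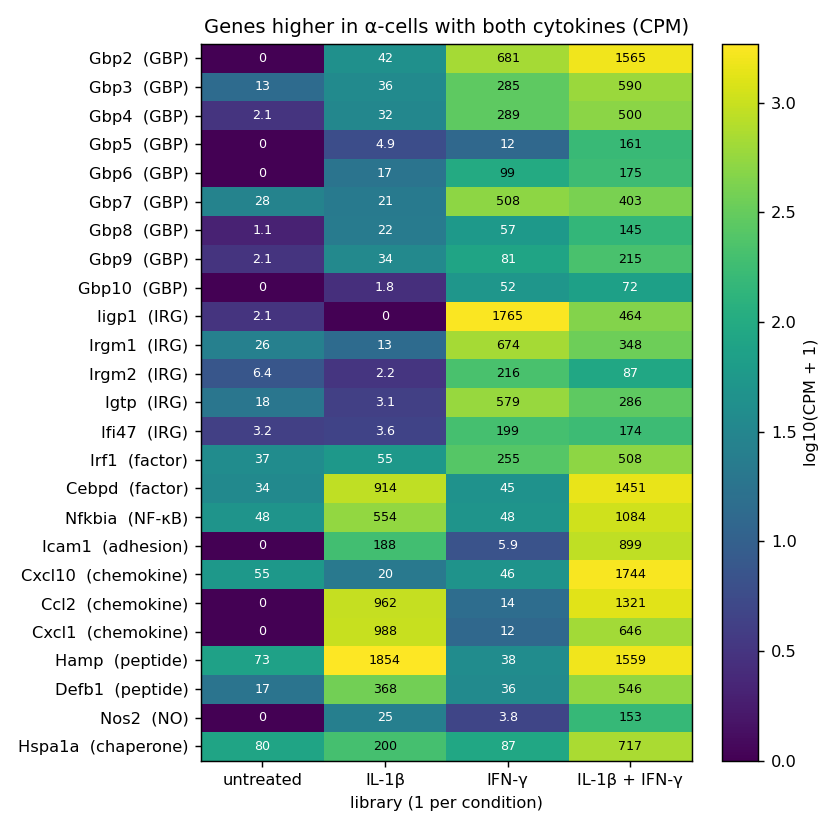
Levels in α-cells of genes higher with both cytokines, 1 column per library, coloured by log10(CPM + 1) with CPM written in. GBPs peak in the combined library, with *Gbp2* at 1565 CPM, except *Gbp7*, while the IRGs peak with IFN-γ alone, with *Iigp1* at 1765 CPM.

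Among genes that passed the limit with IL-1β, the transcription factor *Cebpd* was at 34.3, 914, 45.1 and 1451 CPM, 42.4 times untreated (29.9 to 62.1). Its relative *Cebpb* was at 50.3, 471, 60.3 and 675 CPM. Of 13 C/EBP and stress-linked factors (12 compared), 8 passed the limit with both cytokines, 6 with IL-1β and none with IFN-γ. The NF-κB inhibitor *Nfkbia*, itself a target of NF-κB, was at 48.2, 554, 48.5 and 1084 CPM, 1.96 times its level with IL-1β alone. In all, 5 of 14 NF-κB subunits and inhibitors (12 compared) passed the limit, all upwards.

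Of 15 adhesion and survival genes linked with NF-κB (12 compared), 7 passed the limit with both cytokines and 4 with IL-1β alone. *Icam1* (chr9:21015985-21028817), which binds leukocyte integrins, was at 0, 188, 5.90 and 899 CPM, 4.79 times its level with IL-1β (4.29 to 5.35). It was detected in none of 90 untreated α-cells and in 81.4% with both cytokines. The mitochondrial superoxide dismutase *Sod2* was at 116, 749, 115 and 790 CPM, and the apoptosis inhibitor *Birc3* at 1.07, 194, 8.85 and 209 CPM, so both were close to their IL-1β level in the combined library.

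Chemokines differed in whether they were higher with IL-1β alone, and none passed the limit with IFN-γ alone. *Cxcl10* (chr5:92346638-92348889), the ligand of CXCR3 on T cells, was at 54.6, 19.7, 46.4 and 1744 CPM. All 51 untreated UMIs of *Cxcl10* lay in 1 of the 90 cells, and without that cell the combined level was at least 534-fold above the floor. It was found in 5.99% of α-cells after IL-1β alone, in 5.74% after IFN-γ alone and in 73.7% after the combination, or 5.33%, 3.89% and 66.3% when each cell was thinned to 4000 UMIs. Endothelial-marker cells of the IFN-γ library had *Cxcl10* in 39 of 45 cells, at 9289 CPM, and those of the combined library in 22 of 23 cells, at 19309 CPM. The part of free *Cxcl10* RNA in the α-cells of the combined library was not tested.

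*Ccl2*, which attracts monocytes, was at 0, 962, 13.9 and 1321 CPM and was found in 44% and 59.9% of α-cells with IL-1β and with both. The neutrophil chemokine *Cxcl1* was at 0, 988, 11.8 and 646 CPM, lower with both than with IL-1β alone by a ratio of 0.654 (0.605 to 0.706). *Cxcl2* was at 0, 251, 0.422 and 223 CPM in only 15.6% of α-cells of the combined library. Of the 13 chemokines in the files 6 were compared, and 5 of these passed the limit with both cytokines and 3 with IL-1β alone.

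*Hamp* (chr7:30942368-30944032), which encodes the iron hormone hepcidin, was at 72.8, 1854, 38.4 and 1559 CPM. It was detected in 14.4%, 49.1%, 8.45% and 51.5% of α-cells, so roughly as many α-cells exposed to IL-1β carried a UMI of it as did not. In β-cells it was found in 0%, 14.7%, 0.169% and 18.7% of cells, with median depths of 17320, 8567.5, 11369.5 and 12316.5 UMIs. In macrophage-marker cells of the combined library 1 of 28 had a *Hamp* UMI.

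*Defb1*, a β-defensin, was at 17.1, 368, 35.8 and 546 CPM. It was found in 75.4% of α-cells and 89.2% of β-cells of the combined library, where β-cells had it at 845 CPM. The metalloreductase *Steap4* was at 11.8, 642, 11 and 498 CPM. The metallothioneins *Mt1* and *Mt2*, which bind zinc and copper, passed the limit with each cytokine alone, as did *Snx10* and no other of the 193 genes. *Mt2* was at 91, 845, 238 and 1428 CPM, and *Mt1* at 312, 1962, 642 and 2516 CPM. Of 20 acute-phase, antimicrobial and complement genes 10 were compared, and 8 of these passed the limit with the combination, 5 with IL-1β and 1 with IFN-γ.

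*Nos2* (chr11:78920787-78960254), the inducible nitric oxide synthase, was found in a minority of α-cells. It was detected in 0 of 90 untreated α-cells, where the exact binomial 95% interval reaches 4.02% and a floor of 3 cells is 3.33%. Neither value sets a limit on cells that express it without a UMI. It was detected in 28 of 334 (8.38%, exact binomial 95% interval 5.64% to 11.9%) with IL-1β, in 1 of 296 exposed to IFN-γ and in 55 of 167 (32.9%, 25.9% to 40.6%) with both. At 4000 UMIs per cell the last share was 25.2%. In the same library 875 of 1214 β-cells (72.1%), 30 of 53 δ-cells (56.6%), 5 of 23 endothelial-marker cells and 0 of 28 macrophage-marker cells had a *Nos2* UMI. Thinned to 4000 UMIs, the shares were 61.5% in β-cells and 55.8% in δ-cells. Median depth was 8434 UMIs in these α-cells and 9547 in the macrophage-marker cells. Intervals and floors cover counting error only.

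α-Cells of the combined library with and without a *Nos2* UMI were compared after thinning. Before thinning 55 of 167 cells had a *Nos2* UMI, and after it 41 of 163, while only 4 cells were too shallow to be thinned. Some cells counted here as without *Nos2* therefore had a *Nos2* UMI before thinning. This can bring the shares of the 2 sets closer, by an amount that was not tested. *Gbp2* was found in 39 of 41 cells with *Nos2* and 110 of 122 without, *Icam1* in 37 and 91, and *Cxcl10* in 25 and 83. These shares were 95.1% and 90.2%, 90.2% and 74.6%, and 61% and 68%. *Defb1* was found in 75.6% of cells with *Nos2* and 59.0% without, and *Ccl2* in 61% and 54.9%. Other transcripts were in a minority of the cells without *Nos2*, with *Gbp5* in 48.8% and 38.5%, *Cxcl1* in 53.7% and 32.0%, *Acod1* in 24.4% and 16.4%, and *Cd40* in 12.2% and 7.38%. *Irf1* was found in 75.6% of cells with *Nos2* and 74.6% without. The shares were 48.8% (exact binomial 95% interval 32.9% to 64.9%) and 63.1% (53.9% to 71.7%) for *Hspa1a*, and 14.6% (5.57% to 29.2%) and 22.1% (15.1% to 30.5%) for *Ndufa4*. For all 12 genes looked at in this way the intervals of the 2 sets of cells overlapped. Such an overlap does not show that the shares were equal, and their difference was not tested. *Acod1*, the itaconate enzyme, was at 0, 11.6, 0 and 71.3 CPM, and *Ptgs2* was barely detected, with 0, 7.6, 0 and 4.04 CPM. Ornithine decarboxylase (*Odc1*), the first enzyme of polyamine synthesis, was at 68.5, 351, 61.1 and 405 CPM.

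Of the genes compared, 89 had a level with both cytokines at least 2 times the additive level, IL-1β level plus IFN-γ level minus untreated level, and at least 2 times the higher single level, or 1.05%. Of these, 29 were also among the 193 genes higher by the limit, which is 15% of them. The additive level was set to no less than 3 UMIs. *Cxcl10* stood furthest from it, at 152 times with all untreated cells and at 26.4 times without the 1 cell that held its untreated UMIs. Among the 29 it was followed by *Gbp5* at 9.61 times, *Acod1* at 6.13 times, *Neurl3* at 5.57 times, *Nos2* at 5.40 times and *Icam1* at 4.64 times, which were the same without that cell. *Neurl3*, a ubiquitin ligase, was at 0, 78.3, 5.06 and 464 CPM. Of the 10 genes furthest above the additive level over all 89, 8 (*Phlda3*, *Gdf15*, *Ifit2*, *1810032O08Rik*, *Zmynd19*, *Csrp1*, *Rsad2* and *Zbtb17*) were at 43.1 CPM or less with both cytokines. For *Phlda3*, *Gdf15*, *1810032O08Rik* and *Zbtb17* the additive level without that cell was the floor of 3 UMIs. Their multiples are therefore over the floor and not over a measured sum. *Phlda3* was at 35.7 CPM with both cytokines, against 20.7 CPM untreated without that cell. Without the same untreated cell *Ifit2* was at 3.05 times the additive level in place of 14, *Zmynd19* at 5.38 in place of 10.0, *Csrp1* at 5.44 in place of 9.15 and *Rsad2* at 2.30 in place of 8.86. For *Rsad2*, an antiviral enzyme, the levels were 16.1, 4.47, 16.4 and 43.1 CPM, and 13 of its 15 untreated UMIs lay in the cell that held *Cxcl10*. *Cd40* was above the additive level at 1.07, 5.37, 0.843 and 20.2 CPM, within 12.6% of cells.

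**Figure D4:**
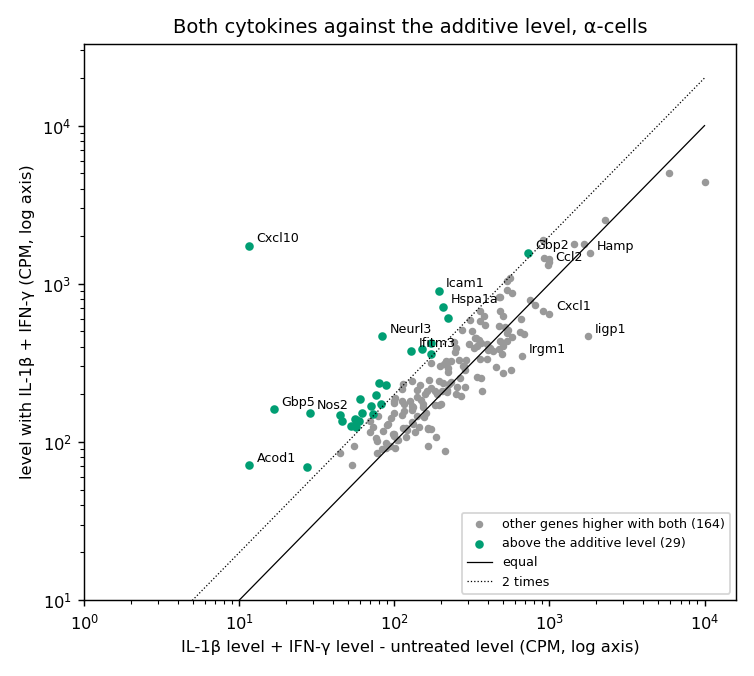
Each point is one of the 193 genes higher in α-cells with both cytokines, with the additive level on the horizontal axis and the measured level on the vertical axis, in CPM on log axes. The 29 green points lie at least 2 times above the additive level, *Cxcl10* furthest, while *Iigp1* and *Irgm1* lie below the line of equality.

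Of 23 antiviral effectors (17 compared), 6 passed the limit with IFN-γ, 2 with IL-1β and 8 with the combination. The nucleic acid sensor *Zbp1* was at 1.07, 7.60, 99.1 and 103 CPM, so its level hardly differed between IFN-γ alone and the combination. *Ifitm3*, which blocks viral entry, was at 17.1, 71.6, 74.2 and 375 CPM, and 11 of its 16 untreated UMIs lay in the cell that held *Cxcl10*. Among feedback inhibitors, 4 of 8 (7 compared) passed the limit upwards, including the JAK inhibitor *Socs1* at 0, 14.8, 62.8 and 101 CPM.

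A few chaperones and stress genes were higher with both cytokines. *Hspa1a*, an inducible HSP70, was at 80.3, 200, 87.3 and 717 CPM, and its share of α-cells was 6.67%, 13.5%, 7.77% and 63.5%. The share was also higher in other endocrine cells, at 10.3% untreated and 48.5% with both in β-cells, and 3.57% and 60.4% in δ-cells. β-Cells had it at 280 CPM with IL-1β alone and 275 CPM with both. In α-cells its near-identical copy *Hspa1b* was at 39.6, 87.2, 40.5 and 231 CPM. Of 12 heat shock chaperones, 3 passed the limit with both cytokines and none with a single cytokine. *Ddit3* (CHOP) was at 32.1, 57.2, 19.4 and 149 CPM, and 4 of 16 unfolded protein and integrated stress response genes (14 compared) passed the limit. The 16 genes of this list summed to 3099, 4085, 3256 and 3629 CPM, so their sum was highest with IL-1β alone.

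Some transcripts were carried by a small group of α-cells. With both cytokines the 5 cells with most UMIs held 57% of *Tac1*, the substance P precursor, which was at 13.9, 263, 2.11 and 394 CPM and in 16.2% of cells. They held 63.4% of *Lcn2*, an iron-siderophore binding protein found in 10.2% of cells, and 70% of *Gal*, the neuropeptide galanin, found in 14.4%. For *Cebpd* the 5 leading cells held 9.64%. The mean level of the first 3 genes thus describes few cells.

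*Iapp* and *Spp1*, which encode abundant secreted products, were higher in both libraries with IL-1β than in the untreated library. *Iapp* (amylin) was at 2244, 5802, 2350 and 5051 CPM. In β-cells it was not higher with both cytokines, with 53307 and 44400 CPM in the untreated and combined libraries. *Spp1* (osteopontin) was at 2333, 9203, 3259 and 4408 CPM, with both cytokines at 0.479 times the IL-1β level (0.466 to 0.493).

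Of the 43 genes below the limit with both cytokines, 19 were also below it with IL-1β alone, none with IFN-γ alone, 3 with each of the cytokines alone (*Ins1*, *Ins2* and *Gm26917*, the last of which did not pass from summed UMIs, at -0.43) and 21 with neither. *Wnt4*, a secreted ligand of islet endocrine cells, was at 293, 38, 195 and 50.5 CPM. The granule zinc transporter *Slc30a8* (ZnT8) was at 552, 116, 446 and 157 CPM, and the potassium channel *Kcnk16* (TALK-1) at 165, 15.2, 134 and 19.5 CPM. These 3 genes were lower with IL-1β alone than with both cytokines.

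*Ndufa4* (chr6:11900292-11907497), an accessory protein of the respiratory chain, differed from them. It was at 456, 364, 422 and 70.6 CPM, 6.45-fold lower with both cytokines than untreated, and was found in 92.2%, 77.2%, 90.9% and 38.3% of α-cells. Against IL-1β alone it was 5.16-fold lower and against IFN-γ alone 5.97-fold lower. In β-cells it was at 288 and 149 CPM in the untreated and combined libraries, and in δ-cells at 573 and 206 CPM. Of 36 genes in the list drawn up for complex I, 3 passed the limit downwards, *Ndufa4*, *Ndufb7* and *Ndufb9*. Of 34 genes in the list for complexes III to V (32 compared) none did. *Ndufa4* is in the first list by its name, although its protein is counted as a subunit of complex IV. These counts therefore do not set complex I apart from the other complexes. *Ndufb7* was at 264, 105, 186 and 112 CPM, as low with IL-1β as with both.

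A rule added after the values were seen, below the limit with both and at most 0.5 times the lower single level, held for 10 genes (0.117% of 8514). They were *Ndufa4*, *Sphkap*, *Dbpht2*, *Pnmal2*, *Slc7a8*, *Slc2a5*, *Oxtr*, *Hist1h2bc*, *Wnk3* and *Scd2*. *Sphkap*, an anchor of protein kinase A, was at 302, 80.9, 321 and 37 CPM. *Dbpht2* was at 254, 74.7, 223 and 21.5 CPM. *Oxtr*, the oxytocin receptor, was at 94.2, 25.5, 58.2 and 10.8 CPM.

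**Figure D5:**
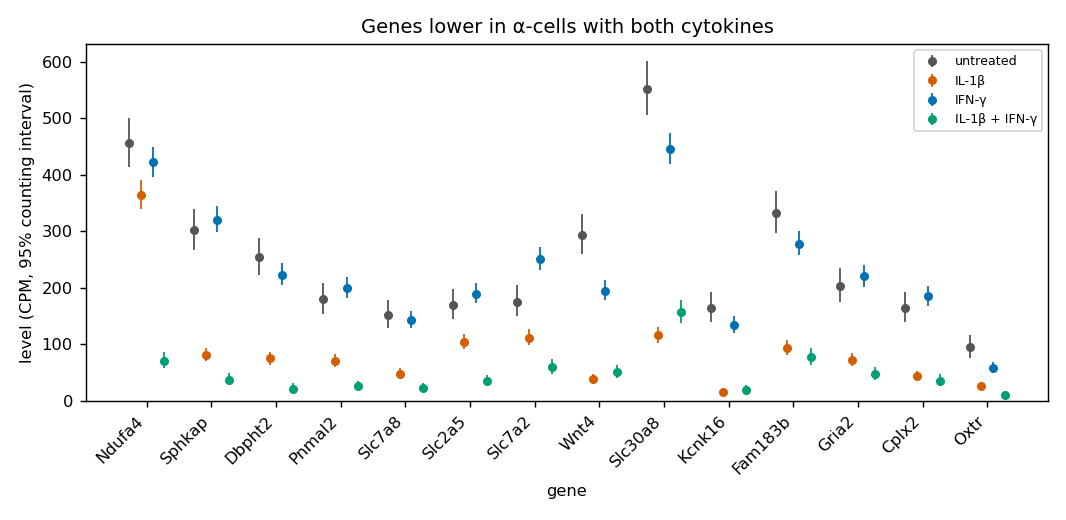
Levels in α-cells of 14 genes lower with both cytokines, in CPM on a linear axis, 1 point per library with its exact Poisson 95% counting interval. *Ndufa4* was low only in the combined library at 70.6 CPM, while *Wnt4*, *Slc30a8* and *Kcnk16* were about as low with IL-1β alone.

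Nutrient uptake genes were lower in part. Of 12 amino acid and sugar transporters (10 compared), 4 passed the limit downwards with both cytokines and none upwards, and 1 did with IL-1β. *Slc7a2* (CAT2), which imports arginine, was at 176, 111, 251 and 59.9 CPM, so that it was highest with IFN-γ alone and 2.93-fold lower with both cytokines than untreated. The neutral amino acid transporter *Slc7a8* was at 152, 47.4, 143 and 22.2 CPM, and the aromatic amino acid transporter *Slc16a10* at 158, 65.3, 162 and 39.7 CPM. The fourth was the fructose transporter *Slc2a5*, at 169, 105, 190 and 35 CPM.

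Secretory gene groups differed in direction. Of 18 hormone and granule genes (17 compared), 3 passed the limit upwards with both cytokines and 1, *Slc30a8*, downwards. Of 18 stimulus-secretion genes and channels, 4 passed the limit downwards, among them *Kcnk16* and the glutamate receptor subunit *Gria2* at 203, 72, 220 and 46.4 CPM. Of 15 exocytosis genes (14 compared), 2 passed it. They were *Cplx2*, which binds SNARE complexes, at 165, 43.4, 185 and 35.7 CPM, and the synaptotagmin *Syt13* at 230, 114, 235 and 76.7 CPM. Among 13 receptors (10 compared) only *Oxtr* did.

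Of 20 islet and α-cell transcription factors (19 compared), 1 was lower by the limit, against 0.505% of all genes compared. It was *Etv1*, at 337, 278, 477 and 164 CPM. Of the 20 factors, 18 had an ln fold change below 0 and 2 above it, where 3490 of all 8514 genes compared were above 0. The median of the factors was -0.15, and that of all genes compared was -0.02. The remaining genes of the 12 largest falls were *Fam183b*, *Hist3h2ba*, *Pnmal2*, *Tmsb4x*, *Gm42418* and *Gm26917*. *Gm42418*, which lies over ribosomal RNA sequence, was at 1996, 960, 1559 and 832 CPM.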

How the data were processed

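The authors captured dissociated islet cells on the 10x Genomics Chromium and deposited, for each library, raw UMI counts per gene and barcode. The kit is version 2 per the labels, and the study's methods name another version. Cell Ranger and mm10 are named in the submitters' processing notes, and the matrix headers give software version 3.0.0. From these counts, levels (CPM of summed UMIs, exact Poisson 95% intervals), shares (exact binomial 95% intervals), ratios (exact conditional binomial intervals) and ln fold changes (mean UMIs per 10000, pseudocount 1, genes detected in at least 10% of α-cells of either library) were computed with numpy 2.4.6 and scipy 1.17.1, and tested on simulated data. No test between conditions was run, since each had 1 library. Members, gene lists and limits were chosen with earlier results of these data known. Named genes were the 12 largest changes in each direction (hormone, mitochondrial, ribosomal and marker genes left out), up to 4 members per list plus those needed to describe it, 11 genes of the study, and the 10 furthest above the additive level. Doublets were limited by the upper gene limit only. Across library pairs 16 barcodes were shared, none of them between α-cells. Positions are from GENCODE M21 (GRCm38). δ-Cells had at least 2% *Sst* UMIs, and endothelial- or macrophage-marker cells had at least 5 UMIs of those markers and low hormone shares. A few of the named genes are not reported here. Alternatives are given in the closing section.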

Additional observations from a re-analysis of the deposited data

How the results depend on the processing

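The counts of 193 higher and 43 lower genes, the 89 genes above the additive level and the numbers of α-cells stayed within 1.5 times of these values, with 4 exceptions. With a pseudocount of 0.1 per 10000 in place of 1, 810 genes were higher and 1013 lower, since low genes then pass the limit. With hormone genes left out of the totals, 85 genes were lower. With the IFN-γ library as reference in place of untreated, 127 genes were higher with both cytokines, and *Gm26917* changed sign to 0.20. The share with *Nos2* also moved: thinned to 4000 UMIs, 25.15% of α-cells of the combined library had a *Nos2* UMI against 32.93%. For the 40 genes followed singly, 568 of 640 values stayed within the counting interval, 71 moved and 1 reversed. The 3 settings added were chosen after seeing the data: without the untreated cell that held *Cxcl10*, with *Ppy* under 1%, and with at least 1000 detected genes. None of these moved a count by over 1.5 times, although the first took *Cxcl10* from 152 to 26.4 times the additive level. Scrublet (scanpy 1.11.5) called 75 of 7471 kept barcodes as doublets, 3 of them α-cells, and without these the counts were 193 and 42. Its automatic threshold in the IL-1β library shifted with numerical rounding, and no α-cell was called there at either threshold. No paired analysis was possible because each condition had 1 library, and no library could be left out. With 90 untreated α-cells, 0 cells with a UMI allows up to 3.33% of cells with a UMI at a floor of 3 cells, which says nothing of cells that express the gene without one.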

Other observations

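Other gene groups also differed between the untreated and combined libraries. Among 10 immediate early genes (9 compared), 3 were higher by the limit, with *Junb* at 107, 342, 121 and 671 CPM, in the order used above (untreated first, the combination last). Cytoskeleton and histone genes went both ways, 4 of 17 higher and 3 lower, with the tubulin *Tubb3* at 4.28, 54.1, 20.7 and 169 CPM and the actin-binding peptide *Tmsb4x* at 2107, 1071, 1501 and 825 CPM. Of 24 apoptosis and death receptor genes (20 compared), 2 were higher, the receptor *Fas* at 10.7, 68.4, 26.6 and 117 CPM and the stress gene *Gadd45b* at 39.6, 160, 50.6 and 424 CPM. Of 18 glycolysis and hypoxia genes (16 compared), 2 were higher, among them *Pfkfb3*, which makes an activator of glycolysis, at 6.42, 140, 24.5 and 200 CPM. The neuroendocrine peptide precursor *Vgf* was at 235, 536, 200 and 625 CPM. Over all genes compared, 2.27% were higher and 0.505% lower.

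One of the 90 untreated α-cells carried an interferon-like set of transcripts. The cell, with 15108 UMIs, 3873 detected genes and 16.3% *Gcg*, held 51 UMIs of *Cxcl10*, 17 of *Ifit3*, 9 of *Ifit2*, 13 of *Rsad2* and 11 of *Gbp3*. The other 89 untreated α-cells together held 0, 0, 0, 2 and 1 UMIs of these genes. The cell had no UMI of *Nos2* or *Icam1*. Its *Ppy* share was 2.87%. The cause was not tested.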
